A study of Mus musculus with 9 samples.

Results

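Glycogen is a branched store of glucose in the cytosol, and the 9 genes described here make it, take it apart or hold proteins on it. They are Pgm1, Pgm2, Ugp2, Gys1, Gbe1, Ppp1r3c, Pygl, Pygb and Stbd1, chosen by name from the enzymes and targeting proteins of glycogen metabolism and matched to the tables by mouse gene symbol, and all 9 were found among 34866 genes. The tables hold RNA levels of primary mouse macrophages, as TPM, a unit of transcript abundance scaled to gene length and to the library total. The 3 conditions were set side by side, each with 3 libraries that the labels call biological replicates. Standard oxygen means 7 days of culture in oxygen whose percentage the labels do not give. Acute hypoxia means culture followed by 3 h in 1% oxygen, with no number of culture days recorded here for that group. Chronic hypoxia means 7 days in 1% oxygen. All 3 groups were grown in alpha-MEM with serum, an antibiotic supplement and medium conditioned by L929 cells, a mouse fibroblast line whose medium supplies the growth factor that macrophages need. The labels name no genotype, strain, age, sex or tissue of origin, and no added agent besides oxygen. The series as a whole concerns how macrophages adapt their metabolism to low oxygen while engulfing dying cells, and glycogen genes bear on the part of glucose that is stored.

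Glucose enters glycogen through glucose 6-phosphate, which phosphoglucomutase turns into glucose 1-phosphate and which Ugp2 then joins to uridine to form UDP-glucose. Glycogen synthase adds that glucose to growing chains, the branching enzyme makes the side branches, and glycogen phosphorylase releases glucose 1-phosphate again when the store is drawn on. Low oxygen is known to raise glycogen synthesis genes in several cell types through hypoxia-inducible factors, and macrophages are known to hold small amounts of glycogen.

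The sample descriptions carry digits that recur once in each group, and the libraries are called here code X, code Y and code Z after them. What the digits stand for is not stated. Libraries of 1 code deviated from their group means together, whereas the replicate numbers of the titles did not line up between standard oxygen and hypoxia, so each result is given without a block and, where the call differs, with the code as a block, which compares libraries within a code. Each library had 10724 to 11208 genes at 1 TPM or more. All 8 macrophage markers were at a mean of 1 TPM or more, and their summed TPM spanned 62407 to 70741 for standard oxygen, 56607 to 74792 for acute and 61827 to 68031 for chronic hypoxia. That sum was nearly all Lyz2, and in chronic hypoxia other markers stood apart from standard oxygen in both directions, with Csf1r at 699 ± 106 against 470 ± 38.7 TPM, Itgam at 760 ± 41.2 against 535 ± 78.2, Cd14 at 758 ± 57.0 against 1070 ± 268 and Adgre1 at 413 ± 140 against 542 ± 48.1 (SD, n = 3), whose part in the results was not tested. None of the 5 fibroblast, 7 lymphocyte and 5 dendritic cell markers reached a mean of 1 TPM, and 3 of the lymphocyte markers were at 0 in every library. Of 7 neutrophil markers 3 reached 1 TPM. The sum of all 7, nearly all S100a8, was 898 to 1595 TPM in standard oxygen, 941 to 1908 in acute and 260 to 585 in chronic hypoxia. The markers did not move together. In standard oxygen, acute and chronic hypoxia, Ngp had means of 2.56, 2.44 and 0.110 TPM, and Camp of 0.832, 0.709 and 1.82 TPM. Ly6g was at 0.0577, 0.206 and 0.323 TPM in the same order. Over the 9 libraries S100a9, Elane and Mpo had means of 0.0257, 0.0878 and 0.0268 TPM. The part of these differences in the results was not tested. The code Z libraries stood apart in every group, with Mertk, a receptor for dying cells, at 2.21 to 3.37 TPM against 21.8 to 33.3 TPM in the others, and results are given without them where that matters. In bulk RNA, fewer cells of a type and less RNA per cell cannot be told apart.

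In both hypoxia groups the synthase gene Gys1 and the mutase gene Pgm1 were at 1.87 to 2.82 times their mean level in standard oxygen, and the phosphorylase gene Pygl was at 1.31 to 1.54 times. Ratios of mean TPM in acute hypoxia to standard oxygen were 2.82 for Gys1, 2.09 for Pgm1 and 1.31 for Pygl, and in chronic hypoxia they were 2.60, 1.87 and 1.54. With the code block, Gys1 and Pgm1 rose in both hypoxia groups and Pygl rose in chronic hypoxia. Without a block, Pgm1 in chronic hypoxia was the 1 call among the members. Ugp2, Gbe1, Pgm2 and Pygb passed in no comparison of either fit. Ppp1r3c and Stbd1 were at or near 0 and were not tested, which leaves 7 members in each test.

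**Figure D1:**
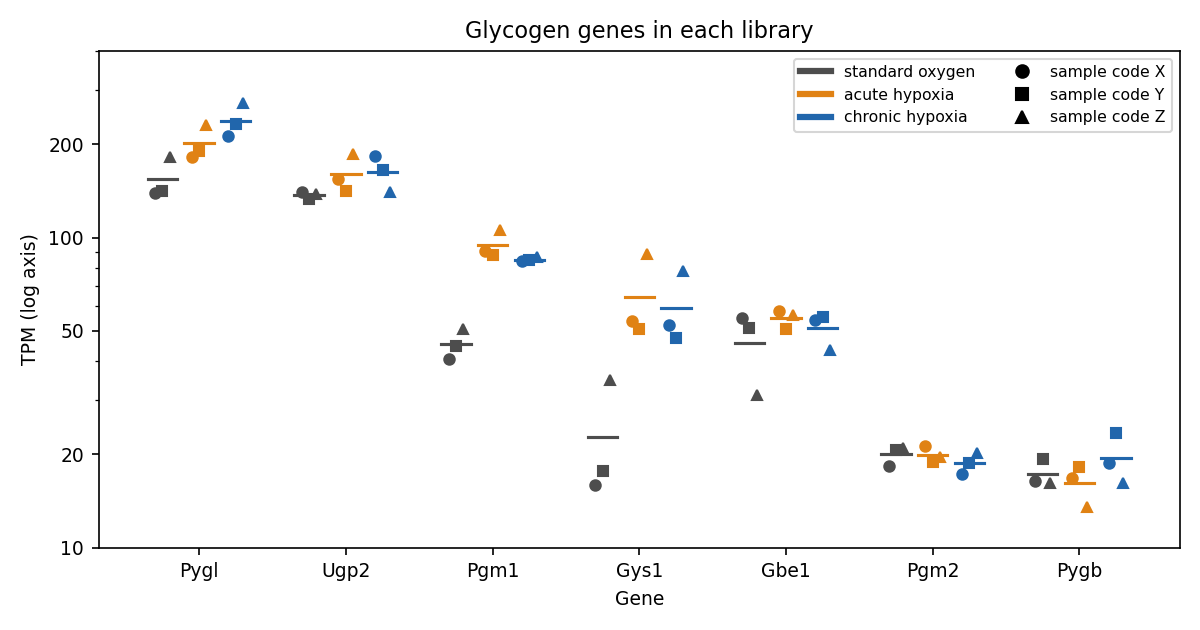
TPM of the 7 tested genes in each of the 9 libraries, on a log axis, with colour for the group, symbol shape for the sample code and a bar at each group mean. All 6 hypoxia libraries lie above all 3 standard libraries for Pgm1 and Gys1, while Pgm2 stays between 17.3 and 21.3 TPM throughout.

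The promoters of these genes are shown for the 3 genes that rose and for Ugp2, the step between them, because hypoxia-inducible factors bind a short motif. The motif searched was ACGTG or GCGTG on either strand, overlapping matches counted separately, within the 250 bases before the annotated start in RefSeq promoters of build GRCm38.p6. Capitals mark the matches, so a match on the other strand reads CACGT or CACGC, and each sequence runs 5′ to 3′ on the strand of its gene. Gys1 is at chr7:45434589-45434838 (plus strand), Pgm1 at chr4:99929201-99929450 (plus), Pygl at chr12:70227684-70227933 (minus) and the first of the 2 Ugp2 entries at chr11:21371268-21371517 (minus).
Gys1: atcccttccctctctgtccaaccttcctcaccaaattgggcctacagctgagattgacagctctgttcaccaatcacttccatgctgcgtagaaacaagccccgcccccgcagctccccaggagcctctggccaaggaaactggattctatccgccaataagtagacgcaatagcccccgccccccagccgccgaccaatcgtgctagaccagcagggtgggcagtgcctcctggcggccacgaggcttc
Pgm1: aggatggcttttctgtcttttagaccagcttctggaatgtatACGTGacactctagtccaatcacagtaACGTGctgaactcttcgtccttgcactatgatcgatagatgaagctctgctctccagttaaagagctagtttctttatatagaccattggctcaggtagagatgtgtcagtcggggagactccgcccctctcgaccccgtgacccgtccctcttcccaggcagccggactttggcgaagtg
Pygl: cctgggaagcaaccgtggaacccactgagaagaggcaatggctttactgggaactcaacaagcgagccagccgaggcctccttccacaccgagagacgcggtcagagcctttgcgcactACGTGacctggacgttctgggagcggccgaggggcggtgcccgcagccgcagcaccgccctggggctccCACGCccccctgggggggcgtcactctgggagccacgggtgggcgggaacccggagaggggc
Ugp2: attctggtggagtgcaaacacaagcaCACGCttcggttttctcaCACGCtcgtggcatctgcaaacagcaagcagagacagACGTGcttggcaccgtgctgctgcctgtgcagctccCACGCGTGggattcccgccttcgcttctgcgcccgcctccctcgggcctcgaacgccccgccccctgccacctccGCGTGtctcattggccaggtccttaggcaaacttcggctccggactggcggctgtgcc
The Pgm1 window held 2 matches, beginning 208 and 181 bases before the start, and the Pygl window held 2, at 131 and 62 bases. The first Ugp2 entry held 6 and the second entry held 0. The Gys1 window held none, as did that of Gbe1, which says only that these letters are not in this stretch. Among the members, 7 of 9 had a match in at least 1 entry, with 4 in Ppp1r3c, 2 in Pygb, 1 in Pgm2 and 1 in Stbd1. Of 32817 promoters of the same length, counted by promoter and not by gene, 38.6% held a match and 16.7% held 2 or more. A match is therefore common, and it marks letters and not a bound site.

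Phosphoglucomutase stands at the entry to glycogen and at the exit from it, since the reaction runs both ways. The main isozyme in most tissues is Pgm1 (ENSMUSG00000025791, chr4:99929451-99987294, plus strand, GRCm38.p6), which older mouse annotation called Pgm2. In standard oxygen Pgm1 was at 40.6, 44.8 and 50.6 TPM in codes X, Y and Z, in acute hypoxia at 90.2, 88.1 and 106 TPM, and in chronic hypoxia at 84.2, 84.3 and 86.3 TPM. The 2 hypoxia groups lay wholly above standard oxygen, and the chronic group lay just below the acute one with an SD of only 1.15 TPM. The log2 difference of acute from standard oxygen was 1.05 ± 0.12 (SE, n = 3 per group), and the adjusted p was 0.0568 unblocked and 0.0120 with the code block. The unblocked value passed after rescaling (0.0199), after quantile normalization (0.0328), with all 9 libraries in 1 fit (0.00837) and without the code Z libraries (0.0105). In chronic hypoxia Pgm1 rose by 0.90 ± 0.11 on the log2 scale, at adjusted p of 0.0193 in the unblocked fit and 0.00921 in the blocked one. Leaving out standard replicate 1, standard replicate 3, chronic replicate 1 or chronic replicate 2 took the unblocked adjusted p to 0.107, 0.125, 0.0930 and 0.125. Between chronic and acute hypoxia the difference was -0.15 (95% interval -0.40 to 0.10, adjusted p 0.450; 0.230 with the code block). Pgm1 was lower in chronic than in acute hypoxia in all 3 codes. After rescaling, the blocked difference was -0.31 with an adjusted p of 0.0695.

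Pgm2 (ENSMUSG00000029171, chr5:64092919-64128355, plus strand), formerly called Pgm1 in the mouse, encodes a related mutase that acts mainly on pentose phosphates. Its level in standard oxygen was 18.4, 20.7 and 21.0 TPM in codes X, Y and Z, in acute hypoxia 21.3, 19.0 and 19.6 TPM, and in chronic hypoxia 17.3, 18.8 and 20.2 TPM. The 3 groups overlapped throughout. Its log2 differences from standard oxygen were -0.01 (95% interval -0.25 to 0.24) in acute and -0.09 (-0.36 to 0.18) in chronic hypoxia, with adjusted p of 1.00 and 0.666. As TPM is per length, the paralogs can be set against each other: Pgm1 was 69.3 ± 1.21% (SD, n = 3) of their summed TPM in standard oxygen, 82.5 ± 1.73% in acute and 81.9 ± 0.969% in chronic hypoxia. Every hypoxia library exceeded every standard library in this share, and 3 against 3 libraries can give an exact permutation p no lower than 0.1.

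Ugp2 (ENSMUSG00000001891, chr11:21321126-21371267, minus strand) makes UDP-glucose, the direct glucose donor for glycogen and for glycosylation. It was at 140, 133 and 138 TPM in codes X, Y and Z in standard oxygen, at 154, 141 and 186 TPM in acute hypoxia and at 184, 165 and 140 TPM in chronic hypoxia. The highest acute library was code Z, whereas in chronic hypoxia code Z was the lowest and lay level with standard oxygen. The log2 difference was 0.22 (95% interval -0.07 to 0.50, adjusted p 0.855; 0.362 with the code block) in acute and 0.24 (-0.05 to 0.53, adjusted p 0.297; 0.138) in chronic hypoxia. Without the code Z libraries, which leaves 2 against 2, Ugp2 was 0.35 higher in chronic hypoxia with an adjusted p of 0.0429. That fit called 1855 genes higher, and the median of all genes in it was 0.17. After rescaling the libraries to a common median ratio the full difference of Ugp2 was 0.06. The acute and chronic groups differed by 0.02 (-0.34 to 0.38), and the sign of that value turned with rescaling.

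Gys1 (ENSMUSG00000003865, chr7:45434839-45456617, plus strand) encodes the glycogen synthase used outside the liver, the enzyme that lengthens the chains. In standard oxygen it was at 16.0, 17.7 and 34.7 TPM in codes X, Y and Z, in acute hypoxia at 53.8, 50.8 and 88.2 TPM and in chronic hypoxia at 52.4, 47.5 and 77.8 TPM. Code Z was the highest library of every group, yet its standard value lay below all 6 hypoxia values. In acute hypoxia the difference was 1.49 on the log2 scale, and the unblocked fit gave an SE of 0.336 and an adjusted p of 0.272, the blocked fit an SE of 0.0951 and an adjusted p of 0.0117. Within codes X, Y and Z the acute difference was 1.69, 1.47 and 1.32. In chronic hypoxia Gys1 was higher by 1.39 (SE 0.322, adjusted p 0.0781 without a block; SE 0.116, adjusted p 0.00855 with the code block), and by 1.65, 1.37 and 1.14 within the codes. After rescaling, the blocked chronic value was 1.21 with an adjusted p of 0.0117. Chronic and acute hypoxia differed by -0.10 (95% interval -0.75 to 0.54), which passed in neither fit (adjusted p 0.863, or 0.351 with the code block). After rescaling, the blocked difference between them was -0.26 with an adjusted p of 0.0868.

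Gbe1 (ENSMUSG00000022707, chr16:70313949-70569720, plus strand) encodes the branching enzyme, which moves short chain ends to make new branch points. It was at 55.1, 51.2 and 31.0 TPM in codes X, Y and Z in standard oxygen, at 58.2, 50.6 and 56.4 TPM in acute hypoxia and at 54.2, 55.4 and 43.4 TPM in chronic hypoxia. The groups overlapped, and the code Z library was the lowest in standard oxygen and in chronic hypoxia. The acute difference was 0.30 (95% interval -0.22 to 0.82, adjusted p 0.947; 0.521 with the code block) and came mostly from code Z, at 0.84 there against 0.08 and -0.02 in codes X and Y. In chronic hypoxia it was 0.19 (-0.37 to 0.74, adjusted p 0.668; 0.290), and -0.06 without standard replicate 2, the code Z library. In codes X, Y and Z, Gys1 per 100 TPM of Gbe1 was 29.0, 34.6 and 112 in standard oxygen, 92.4, 100 and 156 in acute and 96.6, 85.7 and 179 in chronic hypoxia. Code Z was the highest of each group, and the ratio was higher in hypoxia in all 3 codes although the groups overlapped. The means were 58.5 ± 46.3, 116 ± 34.9 and 120 ± 51.1 (SD, n = 3), and without the code Z libraries 31.8, 96.4 and 91.2.

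Ppp1r3c (ENSMUSG00000067279, chr19:36731731-36736604, minus strand) encodes protein targeting to glycogen, a subunit that brings protein phosphatase 1 to the particle, where it switches the synthase on. It was listed at 0 in all 9 libraries. Listing at 0 can come from a failed estimate as well as from missing RNA, which these values cannot tell apart. Of 34866 genes, 14427 were listed at 0 in every library.

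Pygl (ENSMUSG00000021069, chr12:70190815-70227683, minus strand) is the liver isoform of glycogen phosphorylase and had the highest mean TPM of the 9 genes in every group, just ahead of Ugp2 in standard oxygen, where the 2 overlapped. Its level in standard oxygen was 139, 142 and 182 TPM in codes X, Y and Z, in acute hypoxia 182, 191 and 231 TPM and in chronic hypoxia 212, 232 and 271 TPM. Code Z was again the highest library of each group. The order of the groups was the same in all 3 codes, standard below acute below chronic, but the standard code Z library reached the lowest acute one. The acute difference was 0.39 ± 0.15 (log2, SE) where the unblocked adjusted p was 0.642 and the blocked one 0.0786. Without the code Z libraries, 2 against 2, it passed at 0.41 with an adjusted p of 0.0483, in a fit that called 224 genes higher. In chronic hypoxia Pygl was higher by 0.63 ± 0.15 (adjusted p 0.0814), and with the code block it passed at an SE of 0.0648 and an adjusted p of 0.0119. The blocked value after rescaling was 0.45 with an adjusted p of 0.0228. Chronic exceeded acute hypoxia by 0.22, 0.28 and 0.23 in codes X, Y and Z (adjusted p 0.376; 0.0605 with the code block), and by 0.09 after rescaling.

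Pygb (ENSMUSG00000033059, chr2:150786796-150831748, plus strand) is the brain isoform of the phosphorylase. It was at 16.5, 19.4 and 16.1 TPM in codes X, Y and Z in standard oxygen, at 16.7, 18.2 and 13.5 TPM in acute hypoxia and at 18.7, 23.4 and 16.2 TPM in chronic hypoxia. The groups overlapped, and code Y was the highest library of each. The log2 difference was -0.10 (95% interval -0.44 to 0.24, adjusted p 1.00) in acute and 0.15 (-0.23 to 0.53, adjusted p 0.621) in chronic hypoxia, where rescaling turned the sign. Chronic exceeded acute hypoxia in all 3 codes, by 0.25 (-0.16 to 0.66, adjusted p 0.456; 0.116 with the code block). In that comparison 70.7% of all genes tested were above 0, with a median of 0.14. After rescaling, the blocked Pygb difference was 0.099 with an adjusted p of 0.483. Of the summed TPM of the liver, brain and muscle isoforms, Pygl made up 89.6 ± 1.94% in standard oxygen, 92.3 ± 1.75% in acute and 92.1 ± 1.67% in chronic hypoxia (SD, n = 3). The groups overlapped, while within codes X, Y and Z the share was higher by 2.14, 3.36 and 2.68 percentage points in acute and by 2.45, 2.80 and 2.25 in chronic hypoxia.

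Stbd1 (ENSMUSG00000047963, chr5:92603051-92606579, plus strand) encodes a starch-binding protein that ties glycogen to membranes and to its breakdown in lysosomes. It was at 0 in 5 libraries and at most 0.0833 TPM in the others.

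**Figure D2:**
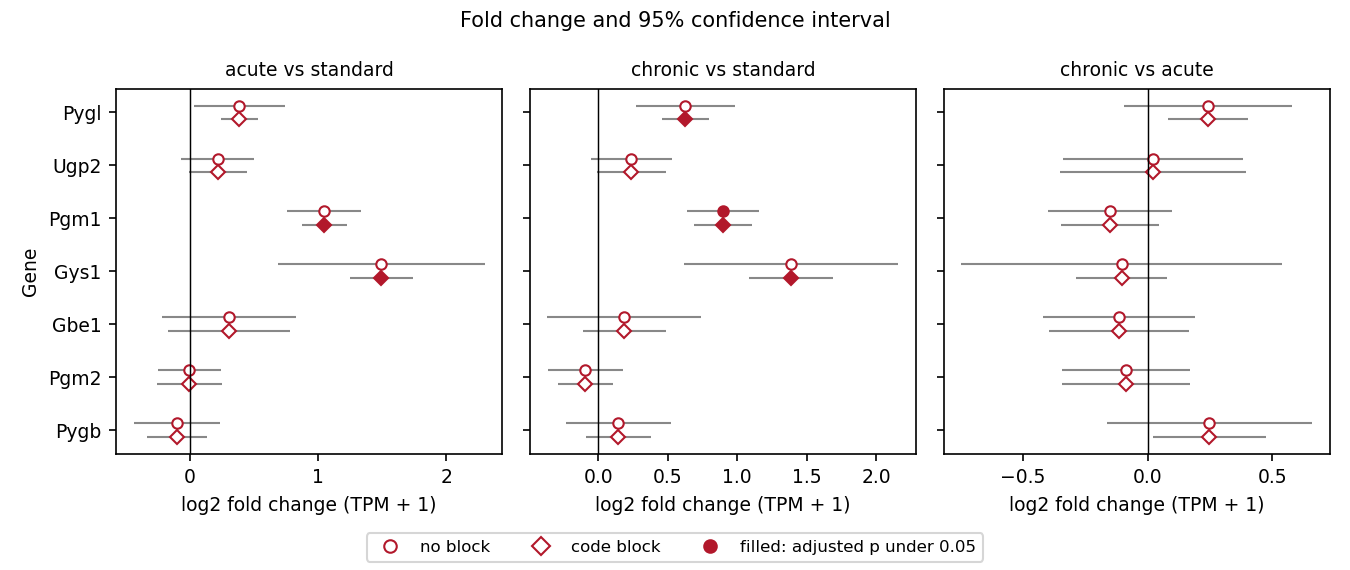
Log2 fold change of each tested gene in the 3 comparisons, with circles for the fit without a block, diamonds for the fit with the code block, filled where the adjusted p is under 0.05, and bars for the 95% confidence interval; the horizontal ranges differ between panels. Gys1 and Pgm1 lie at 1.49 and 1.05 in acute and at 1.39 and 0.90 in chronic hypoxia against standard oxygen, and in the chronic against acute panel no symbol is filled.

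Counted together, 0 of 7 tested members were called in acute hypoxia without a block, where 0.0273% of 10987 genes were called (3 genes; 785 had an unadjusted p under 0.05), and 2 of 7 were higher with the code block, where 0.655% of genes were called higher. In chronic hypoxia 1 of 7 was higher without a block, against 2.10% of 11067 genes, and 3 of 7 with the code block, against 15.1%. Rescaling left the blocked counts at 2 and 3, against 0.447% of all genes called higher in acute and 5.54% in chronic hypoxia. None was lower in either comparison with standard oxygen. Between chronic and acute hypoxia 0 of 7 were called in either fit, where 0.695% of 11087 genes were called without a block and 15.5% with the code block.

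The median log2 difference of the 7 members was 0.30 in acute hypoxia, against 0.01 over all genes tested, and without the code Z libraries it was 0.11 against 0.02. In chronic hypoxia it was 0.24 against 0.16, or 0.35 against 0.17 without code Z. Between chronic and acute hypoxia it was -0.09 against 0.14, and without code Z its sign turned, at 0.01 against 0.14. Rescaling moved the median of all genes from 0.16 to 0.00 in chronic hypoxia, and differences there are best read relative to it. After rescaling, the members' median in chronic hypoxia was 0.06, against -0.0023 over all genes tested. It was 0.28 against -0.0083 in acute hypoxia, and -0.24 against -2.1e-05 between chronic and acute hypoxia. Both comparisons with standard oxygen use the same 3 standard libraries, so likeness between them is not independent. Gys1 and Pgm1 were among the 3 tested members whose acute values all lay above the standard ones, with Ugp2, and Gys1, Pgm1 and Pygl were those in chronic hypoxia, where 7.63% and 24.2% of all genes did so. Pgm1 alone lay wholly lower in chronic than in acute hypoxia, as did 5.5% of all genes.

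The balance of synthase to phosphorylase RNA is given by library, and the only test run on it was an unpaired exact permutation test. Gys1 per 100 TPM of Pygl was 11.5, 12.5 and 19.0 in codes X, Y and Z in standard oxygen, 29.6, 26.6 and 38.2 in acute hypoxia and 24.7, 20.5 and 28.8 in chronic hypoxia. All hypoxia values lay above all standard values. In chronic hypoxia the ratio was below that of acute hypoxia in all 3 codes, with differences of -4.83, -6.15 and -9.45, though the groups overlapped. Gys1 per 100 TPM of Ugp2 was 16.6 ± 7.38 in standard oxygen, 39.4 ± 6.89 in acute and 37.6 ± 15.6 in chronic hypoxia (SD, n = 3). From acute to chronic hypoxia that ratio differed by -6.37, -7.23 and 8.35 in codes X, Y and Z. Without the code Z libraries its means were 12.4, 35.4 and 28.6 in standard oxygen, acute and chronic hypoxia. Across 21 such comparisons the lowest exact two-sided permutation p was 0.1, the smallest that 3 against 3 libraries can give without pairing, and the lowest adjusted value was 0.21. These ratios were not tested within codes.

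**Figure D3:**
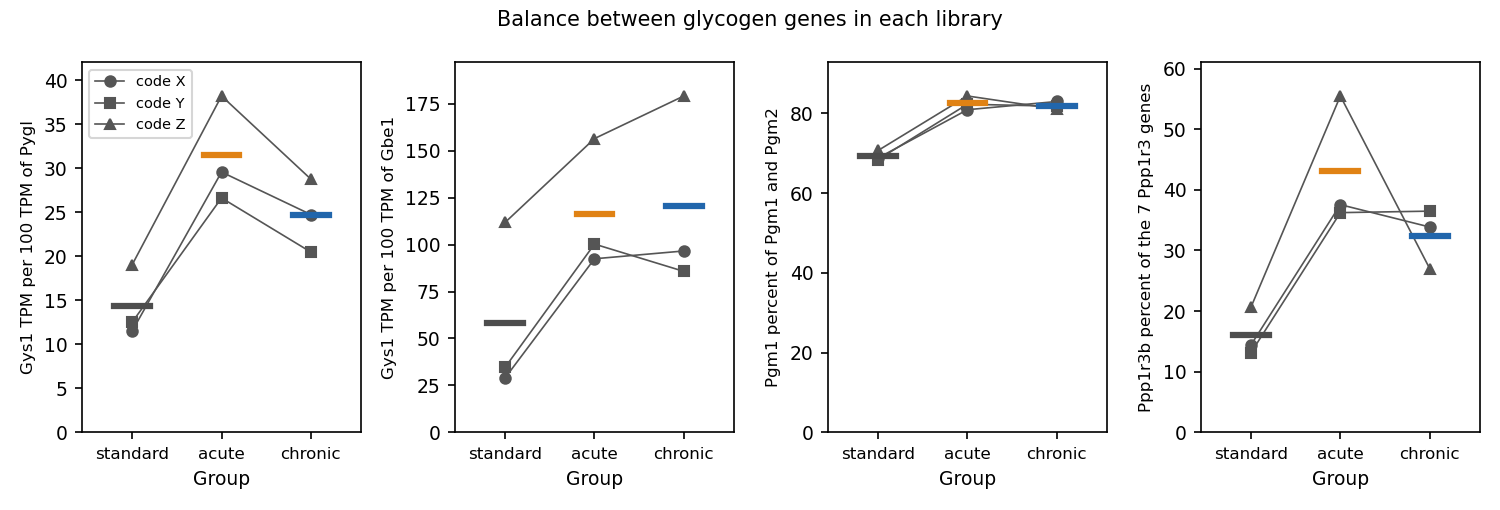
Ratios and shares of glycogen genes in each library, with lines joining the libraries of 1 code and thick bars at the group means; all axes start at 0. Gys1 per 100 TPM of Pygl peaks in acute hypoxia in every code, and the Pgm1 share of Pgm1 and Pgm2 lies between 68.4% and 70.7% in standard oxygen and between 80.9% and 84.4% in hypoxia.

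Around the 9 members, 26 further genes of glycogen metabolism were listed, and 21 or 22 of them could be tested. They comprise the primer glycogenin, the debranching and lysosomal enzymes, phosphorylase kinase, protein phosphatase 1 with its targeting subunits, synthase kinases, laforin and malin, and the glucose 6-phosphate exit. With the code block 1 of 21 was higher in acute hypoxia, against 0.655% of all genes, and 5 of 22 in chronic hypoxia, against 15.1%. After rescaling the blocked counts were 1 of 21 against 0.447% and 3 of 22 against 5.54%. Without a block 0 were called in acute hypoxia, against 0.0273%, and 2 were higher in chronic hypoxia, against 2.10%. None was lower in any of these fits. Between chronic and acute hypoxia 0 of 22 were called without a block, against 0.695%, and 1 with it, against 15.5%.

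The acute call was Ppp1r3b, which encodes another targeting subunit of protein phosphatase 1, best known from liver. It was at 2.77, 3.28 and 4.70 TPM in codes X, Y and Z in standard oxygen, at 12.8, 13.7 and 22.8 TPM in acute hypoxia and at 14.004, 15.5 and 10.8 TPM in chronic hypoxia. All 6 hypoxia libraries were above the standard ones, and code Z was the highest acute but the lowest chronic library. The log2 difference was 1.91 ± 0.26 in acute hypoxia (SE, adjusted p 0.0874; 0.00993 with the code block) and 1.67 ± 0.21 in chronic hypoxia (adjusted p 0.0226; 0.0165). Of the summed TPM of 7 Ppp1r3 targeting subunits, Ppp1r3b made up 16.1 ± 4.02% in standard oxygen, 43.1 ± 10.8% in acute and 32.5 ± 4.90% in chronic hypoxia. From acute to chronic hypoxia this share differed by -3.69, 0.25 and -28.5 percentage points in codes X, Y and Z. Without the code Z libraries the share was 13.8%, 36.9% and 35.2% in standard oxygen, acute and chronic hypoxia. Ppp1r3c entered the sum at 0. The sum itself was 22.3 ± 2.90 TPM, 37.7 ± 3.43 TPM and 41.3 ± 1.28 TPM in the same order (SD, n = 3).

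Slc37a4, the carrier that takes glucose 6-phosphate into the endoplasmic reticulum, was at 9.51, 8.09 and 13.3 TPM in codes X, Y and Z in standard oxygen, at 17.1, 18.4 and 22.7 TPM in acute hypoxia and at 21.8, 22.8 and 25.1 TPM in chronic hypoxia. It rose by 1.12 ± 0.18 (log2, SE) in chronic hypoxia at adjusted p of 0.0379 (unblocked) and 0.0128 (blocked). The acute difference of 0.87 had an adjusted p of 0.273 and 0.0593. All 6 hypoxia libraries again exceeded all 3 standard ones. Epm2a, which encodes the glycogen phosphatase laforin, was at 5.29, 7.95 and 3.34 TPM, then 9.08, 9.47 and 8.43 TPM, then 13.2, 14.5 and 8.29 TPM in the same order. With the code block it was higher by 1.02 in chronic hypoxia (adjusted p 0.0136; 0.129 without a block). Ppp1r3e, a further targeting subunit, was higher by 0.65 (adjusted p 0.0325 with the code block), a call that was lost after rescaling at an adjusted p of 0.0838 and without the code Z libraries at 0.0591. Ppp1cc, a catalytic subunit of the phosphatase, was higher by 0.40 in chronic hypoxia than in standard oxygen (adjusted p 0.0235 with the code block) and by 0.29 than in acute hypoxia (0.0465), and after rescaling these adjusted p were 0.101 and 0.261. Its level is uncertain, since 49.9% of its 75-base stretches also occur in other genes.

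**Figure D4:**
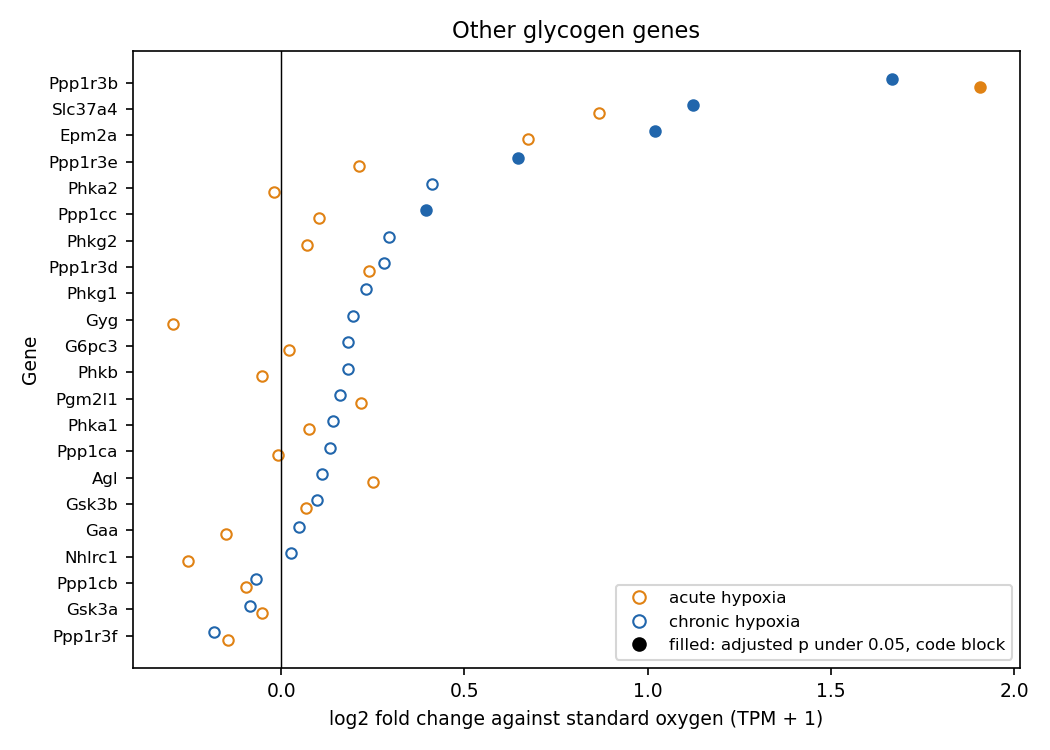
Log2 fold change against standard oxygen of 22 further glycogen genes in acute and chronic hypoxia from the fit with the code block, filled where the adjusted p is under 0.05; Phkg1 has no acute value. Ppp1r3b lies farthest to the right, at 1.91 in acute and 1.67 in chronic hypoxia, and no gene with a negative value is filled.

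The genes whose log2(TPM + 1) most resembled each member over the 9 libraries were taken from 7106 genes with a mean of at least 10 TPM. For Pygl they were the glycolytic genes Gpi1, Pkm and Gapdh, with Pearson r of 0.995, 0.992 and 0.986. Those for Pgm1 were Ppp1r3b (0.984), the translation repressor Eif4ebp1 (0.980) and the oxygen-sensing hydroxylase Egln1 (0.975). Gys1 was most like Tmem119 (0.991), the polyamine oxidase Smox (0.986) and Gpr35 (0.984). Gbe1 had C9orf72 (0.964), Tmem60 and Id2, and Pygb had Lztr1 (0.958), Snap23 and Man1c1. The values for Ugp2 (Znhit6 at 0.897, then Rbm18 and Wdr20) and Pgm2 (Mrpl38 at 0.848, then Mrpl22 and Ube4b) were lower. All 9 points share groups and codes, so these are descriptions and carry no test.

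No member shares a 75-base stretch with another gene. Pgm1 overlaps Itgb3bp on the opposite strand over 13.6% of its exon bases and Gys1 overlaps Ruvbl2 over 6.5%, and whether counting used strand is not given in the sources used here. Itgb3bp was at 3.46 ± 1.26, 4.01 ± 0.611 and 2.69 ± 1.23 TPM in standard oxygen, acute and chronic hypoxia, and Ruvbl2 at 20.6 ± 5.29, 29.1 ± 5.52 and 29.4 ± 10.7 TPM (SD, n = 3). Their part in the Pgm1 and Gys1 values was not tested.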

How the data were processed

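RNA of 9 macrophage cultures was sequenced as 75-base paired reads from Illumina TruSeq libraries, per the labels' protocols. FastQC, STAR, featureCounts and build GRCm38 are named in the submitters' processing notes, and versions, annotation and strand setting are not given in the sources used here. The authors deposited TPM per Ensembl gene in 3 tables, each holding 2 groups, and every library's values were identical in its 2 tables. Each library sums to 1000000 TPM, so read depth is unknown and no counting interval can be given. Symbols were found for 34582 of 34866 genes. Tests used limma 3.58.1 (R 4.3.3) on log2(TPM + 1), with two-sided moderated statistics and a trend of variance on level, over the 6 libraries of 2 groups, for genes with a mean of at least 1 TPM, with Benjamini-Hochberg adjustment over all genes tested and a threshold of 0.05. Fold changes on this scale understate those of low genes. Only the fit without a block was tried on simulated data, which held no code structure. The fits with a code block, with rescaling or with all 9 libraries were not tested in that way.

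P-values measure the spread between these libraries, called biological replicates in the labels. Correlations of deviations from the group means were 0.375 to 0.631 for libraries of 1 code in all 3 comparisons. Those for title replicate numbers were -0.508 to 0.395 against standard oxygen, and between the hypoxia groups numbers and codes coincide. The code block is therefore used as the paired fit. That check set the codes only against the title numbers, and code X and replicate 1 are the same libraries. As code Z stood apart in every group, the check cannot tell whether codes X and Y are matched rightly between groups. Codes X, Y and Z are replicates 1, 3 and 2 of standard oxygen and 1, 2 and 3 of both hypoxia groups.

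Named genes were all members, any gene of the 2 lists that passed without a block or with the code block, and the 3 genes most alike to each member. Gyg and Galt fall outside this rule and were named, after their values were seen, for lying on opposite sides of standard oxygen in the 2 hypoxia groups. Members and lists were chosen with earlier results of these data known, and the ratios, with their means without code Z, after values were seen. Sequences and positions are from RefSeq. Ratios were tested with scipy 1.17.1. Alternatives covered pseudocount, low-value filter, trend, rescaling, quantile normalization, all 9 libraries in 1 fit, blocks and left-out libraries.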

Additional observations from a re-analysis of the deposited data

Results flagged for a closer look

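None of the 9 members is among these results, which are differences between the 2 hypoxia groups in genes around them, and groups of 3 libraries were not screened for outlying samples. Gyg, which encodes the glycogenin primer, was below standard oxygen in acute hypoxia and above it in chronic hypoxia in every code. It was at 50.2, 52.0 and 43.7 TPM in codes X, Y and Z in standard oxygen, at 38.6, 36.9 and 42.7 TPM in acute hypoxia and at 60.7, 61.0 and 46.7 TPM in chronic hypoxia. Chronic exceeded acute hypoxia by 0.49 on the log2 scale, and the adjusted p was 0.126 unblocked and 0.0635 with the code block, so the difference did not pass. Galt, a uridylyltransferase of galactose metabolism, showed the same order, with a difference of 0.29 and adjusted p of 0.236 and 0.0997, and 26.7% of its exon bases overlap a gene on the opposite strand. In code Z, acute and chronic hypoxia differed from standard oxygen by -0.03 and 0.10 (log2) for Gyg, and by -0.11 and 0.04 for Galt. Both of these chronic values were below the median of all genes tested, 0.16. The share of all genes with this order in every code is not given here. The other 4 passed with the code block and not without it. They were 1 of 22 further glycogen genes tested, and 2 higher and 1 lower of 10 UDP-glucose and galactose genes. Of all 11087 genes, 15.5% were called with the code block and 0.695% without a block. Ppp1cc was higher in chronic than in acute hypoxia by 0.29 (adjusted p 0.0465), Galk1 by 0.50 (0.0208) and Uggt1 by 0.39 (0.0389). Ugdh differed by -0.51 (0.0150). After rescaling with the code block, the adjusted p was 0.261 for Ppp1cc, 0.0595 for Galk1 and 0.129 for Uggt1, so these calls were lost, and 0.0128 for Ugdh.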

How the results depend on the processing

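In acute hypoxia 3 genes were called without a block, and 5 without the trend, 21 after rescaling, 23 after quantile normalization and 25 with all 9 libraries. The replicate block of the titles gave 0, the code block 78, the code block with rescaling 54, the code block with all 9 libraries 204 and omission of code Z 319, and leaving out 1 replicate gave 0 to 33. In chronic hypoxia 298 were called, against 120 without the filter, 166 without the trend and 764 with all 9 libraries. The replicate block gave 1, the code block 2039, with rescaling 1270, with all 9 libraries 2909, omission of code Z 2300 and leaving out 1 replicate 1 to 522. Between chronic and acute hypoxia 77 became 7 without the filter, 25 without the trend, 415 with all 9 libraries, 1724 with the replicate block and with the code block, 1084 with code block and rescaling, 2450 with code block and all 9 libraries, 1788 without code Z and 1 to 308 with 1 replicate left out. The causes were not tested. With the replicate block, Pgm1 in chronic hypoxia had an adjusted p of 0.136 at 0.90, and no other member's call changed. Signs turned only in values that were never called. These were, for acute hypoxia, Pgm2 at 0.0400 without code Z and -0.0614 to 0.0296 with 1 replicate left out, and Pygb at -0.187 to 0.0124. For chronic hypoxia they were Pygb at -0.0265 after rescaling, with or without the code block, and -0.0460 after quantile normalization, and Gbe1 at -0.0646 to 0.339 with 1 replicate left out. Between chronic and acute hypoxia they were Ugp2 at -0.135 after rescaling with or without the code block, -0.113 after quantile normalization and -0.0689 to 0.133 with 1 replicate left out, Gbe1 at 0.0131 without code Z, and Gys1 at -0.315 to 0.144 with 1 replicate left out. Leaving out 1 replicate sets 2 libraries against 3. Without a block, Pgm1 in acute hypoxia passed after rescaling (adjusted p 0.0199), after quantile normalization (0.0328), with all 9 libraries (0.00837) and without standard replicate 2 (0.0475). Gys1 and Pygl in chronic hypoxia passed with all 9 libraries (0.0437 each) and without standard replicate 2 (0.0243 and 0.0433). Omission of code Z, also without a block, sets 2 libraries against 2. There Pgm1, Gys1 and Pygl passed in acute hypoxia (adjusted p 0.0105, 0.00672 and 0.0483). In chronic hypoxia Gys1, Pygl and Ugp2 then passed too (0.00222, 0.00741 and 0.0429), besides Pgm1 (0.00366). With all 9 libraries and the code block, Pygl passed in acute hypoxia (adjusted p 0.0230) and between chronic and acute hypoxia (0.0250). TPM keep no read depth, so precision rests on the 3 libraries a group.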

Other observations

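UDP-glucose also feeds galactose metabolism and glycosylation, and 10 genes of these branches were listed and tested. Without a block 0 of 10 were called in acute hypoxia (0.0273% of all genes were), 1 was higher in chronic hypoxia (2.10%) and 0 were called between chronic and acute hypoxia (0.695%). That 1 was Uxs1, which makes UDP-xylose, at 24.8, 24.2 and 28.6 TPM in codes X, Y and Z in standard oxygen and 39.6, 41.4 and 37.8 TPM in chronic hypoxia (log2 difference 0.60, adjusted p 0.0449). It shares 9.46% of its 75-base stretches with other genes. With the code block 4 of 10 were higher in chronic hypoxia, where 15.1% of all genes were. Galk1, which phosphorylates galactose, was higher by 0.83 (adjusted p 0.0124), Pgm3, a mutase of the hexosamine pathway, by 0.62 (0.0228), Uggt1, a sensor of misfolded glycoproteins, by 0.43 (0.0344), and Uxs1 passed at 0.0236. Against standard oxygen, Galk1 alone of these 4 passed after rescaling (adjusted p 0.0228, where 5.54% of all genes were called higher), and 28.3% of the Pgm3 exon bases overlap a gene on the opposite strand. Ugdh, which turns UDP-glucose into UDP-glucuronate, was at 85.8, 85.5 and 69.4 TPM in standard oxygen, at 94.5, 93.9 and 112 TPM in acute hypoxia and at 67.4, 67.2 and 75.7 TPM in chronic hypoxia. With the code block it fell by 0.51 from acute to chronic hypoxia (adjusted p 0.0150; 0.0128 after rescaling), and the 2 groups did not overlap.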
